A study of Homo sapiens with 4 samples.

Results

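The 32 genes described here code for the carriers that bring glucose into a cell and move lactate across its membrane, the enzymes of glycolysis, the enzymes that decide what becomes of pyruvate, a link to glycogen and 3 enzymes of the pentose phosphate pathway. They were taken by name, with earlier results of these data known. All 32 had a row among the 58229 genes of the deposited table. RNA was sequenced from CD31+ cells collected on day 8 of hematopoietic differentiation of H1, a line of human embryonic stem cells. There were 4 libraries, 2 labelled Control and 2 labelled HAND1_OE, the latter from H1 cells that overexpressed HAND1, a basic helix-loop-helix transcription factor. Both groups received activin A and BMP4 and afterwards VEGF and bFGF, factors that lead pluripotent cells through mesoderm to endothelium. Whether Control cells carried an empty or uninduced construct is not given in the sources used here. Nor is it given whether the libraries of a group came from separate cultures, so the p-values below measure only the spread between these libraries, which may be technical. The comparison asks which of these metabolic genes differed in CD31+ cells when HAND1 was expressed from a transgene.

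Glycolysis splits glucose into pyruvate and yields ATP and NADH without oxygen. Its committed step, phosphofructokinase, is stimulated by fructose 2,6-bisphosphate, whose level is set by the PFKFB enzymes. Pyruvate is then reduced to lactate and exported, or enters mitochondria through pyruvate dehydrogenase, which the PDK kinases switch off. The pentose phosphate pathway branches off after the first step to make NADPH and ribose for nucleotides. Endothelial cells are known for drawing much of their ATP from glycolysis, and stem cells are known to rely on it as well.

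Levels are given as FPKM, fragments per length of transcript and per depth of sequencing, so that genes can be set side by side. HAND1 (ENSG00000113196.2, chromosome 5, 154474972 to 154478264, GRCh38) was at 12.1 and 14.3 FPKM in Control against 520.5 and 517 FPKM in HAND1_OE, a log2 difference of 5.20 (limma adjusted p = 0.00145). The 4 libraries were of similar depth, at 0.985 to 1.19 times that of Control 1 as read from low values, and 13989 to 14542 genes reached 1 FPKM in each. PECAM1, which codes for CD31, was at 95.5 and 141 FPKM in Control and 92.0 and 160 FPKM in HAND1_OE, and the summed level of 14 endothelial markers ranged from 2161 to 2582 FPKM over both groups. Of these 14, VWF was called higher (31.3 and 14.6 FPKM, then 107 and 95.4 FPKM with HAND1_OE) and CLDN5 lower (84.96 and 66.1 FPKM, then 15.2 and 14.3 FPKM). PTPRC, the gene for the leukocyte antigen CD45, was at or near 0 in every library. Blood markers differed between the groups. The summed level of 16 erythroid markers was 916 and 1342 FPKM in Control against 81.4 and 71.7 FPKM in HAND1_OE, with 11 of the 13 tested called lower. That of 10 megakaryocyte markers was 162 and 205 FPKM against 17.7 and 12.1 FPKM, with 7 of 8 called lower, and that of 13 pan-hematopoietic markers was 264 and 260.4 FPKM against 108 and 92.4 FPKM, with 8 of 12 called lower. The summed level of 12 fibroblast and stroma markers was 901 and 819 FPKM in Control and 1224 and 1255 FPKM in HAND1_OE. Of 11 tested, 4 were called higher, and 8 lay above 0 in log2 difference and 3 below. THY1, not called, held the largest part of this sum, at 378 and 383 FPKM against 553 and 628 FPKM. COL1A2 was below, at 154 and 141 FPKM against 68.6 and 101 FPKM, and was not called. The summed level of 9 cardiac muscle markers was 117 and 107 FPKM against 32.3 and 33.04 FPKM (2 of 6 called lower). MYL4, called lower, held most of this sum in Control, at 68.1 and 75.9 FPKM against 4.68 and 3.85 FPKM. Of the 6 tested, 4 lay below 0 in log2 difference and 2 above. TNNT2 was above, at 1.39 and 1.64 FPKM against 3.50 and 6.37 FPKM, and was not called. The summed level of 9 pluripotency markers was 104 and 119 FPKM against 68.6 and 86.6 FPKM (1 of 7 called lower). Of the 7 tested, 6 lay below 0 in log2 difference and 1 above. LIN28A, DPPA4 and DNMT3B, none of them called, held most of this sum in every library. NANOG and SOX2 stayed under 1 FPKM in every library and were not tested. Of 10 trophoblast and amnion markers, HAND1 included, 7 were tested and 2 called higher, HAND1 itself and TFAP2A. Of these 7, 4 lay above 0 in log2 difference and 3 below. Without HAND1 their summed level was 133 and 160 FPKM in Control and 156 and 165 FPKM in HAND1_OE, with overlap. Among 10 proliferation markers 0 passed in limma, with 2 below at an unadjusted p under 0.05. In bulk RNA such as this, fewer cells of a type and less RNA per cell cannot be told apart.

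All 32 genes passed the filter of 1 FPKM in at least 2 libraries, and their mean over the 4 libraries ran from 2.63 FPKM for HK2 to 1294 FPKM for GAPDH. The median of these means was 65.6 FPKM, against 9.39 FPKM over all 14622 genes tested. Glycolytic enzymes led the order, with GAPDH followed by ALDOA, ENO1, LDHB, PKM and TPI1, and 9 of the 32 averaged over 100 FPKM. Only PFKFB4, PDK3, PDK1 and HK2 averaged under 10 FPKM. Together the 32 genes made up 0.757% to 0.853% of all FPKM in a library, with overlap between the groups.

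**Figure D1:**
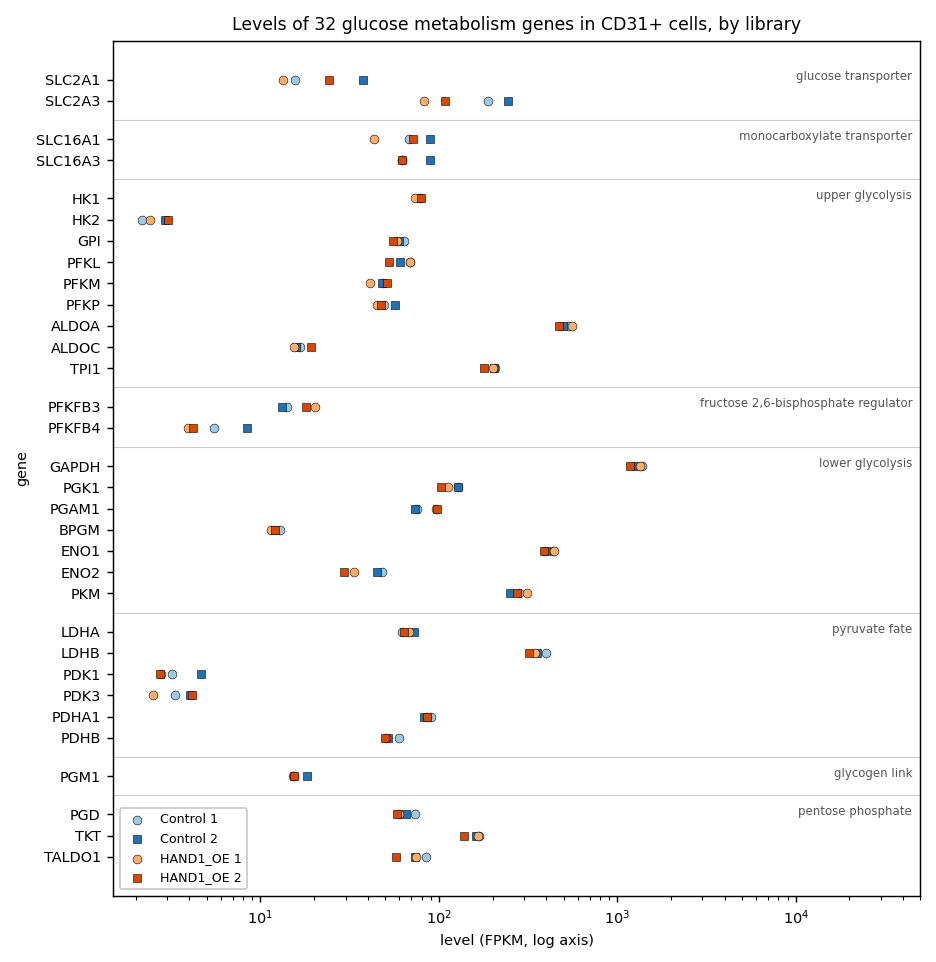
Levels of the 32 genes in FPKM on a log axis, 1 row per gene, ordered by role, with a blue point for each of the 2 Control libraries and an orange point for each of the 2 HAND1_OE libraries (circles are replicate 1, squares replicate 2). For most genes the 4 points lie together, while for SLC2A3 the HAND1_OE points at 82.2 and 109 FPKM lie below the Control points at 189 and 243 FPKM.

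SLC2A3, the high-affinity glucose carrier GLUT3, was called lower. It was the only one of the 32 with a limma adjusted p under 0.05. None of the 32 was called higher, while 2 genes above and 3 below had an unadjusted p under 0.05. Over all genes tested 2.04% were called higher and 2.11% lower, and 17.4% had an unadjusted p under 0.05 in either direction, so the counts for these genes, 0, 1 and 5 of 32, were near those shares. The HAND1_OE pair of libraries lay wholly above the Control pair for 2 of the 32 genes and wholly below it for 12, where 16.2% of all genes tested lay above and 30.1% below. For the other 18 genes the groups overlapped. The difference of log2(FPKM + 1), HAND1_OE minus Control, was below 0 for 26 of the 32 genes, with a median of -0.11, and was below 0 for 61.3% of all genes tested, with a median of -0.08. After median-ratio scaling between libraries 19 of the 32 were below 0 and their median was -0.02, with a median of 0.0022 over all genes.

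The spread between these libraries was small enough to bound many of these differences, although it may be technical and not that of separate cultures. These genes also had higher levels, with a median of 65.6 FPKM against 9.39 FPKM over all genes tested. The standard error of the log2 difference ran from 0.136 for PGAM1 to 0.455 for SLC2A1. For 18 of the 32 genes the 95% interval of the difference lay within 1.5-fold in both directions, which held for 27.3% of all genes tested. For the other 14 the interval reached beyond 1.5-fold on at least 1 side, and among them the intervals of SLC2A3, ENO2, PFKFB3, PFKFB4 and PGAM1 did not include 0.

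**Figure D2:**
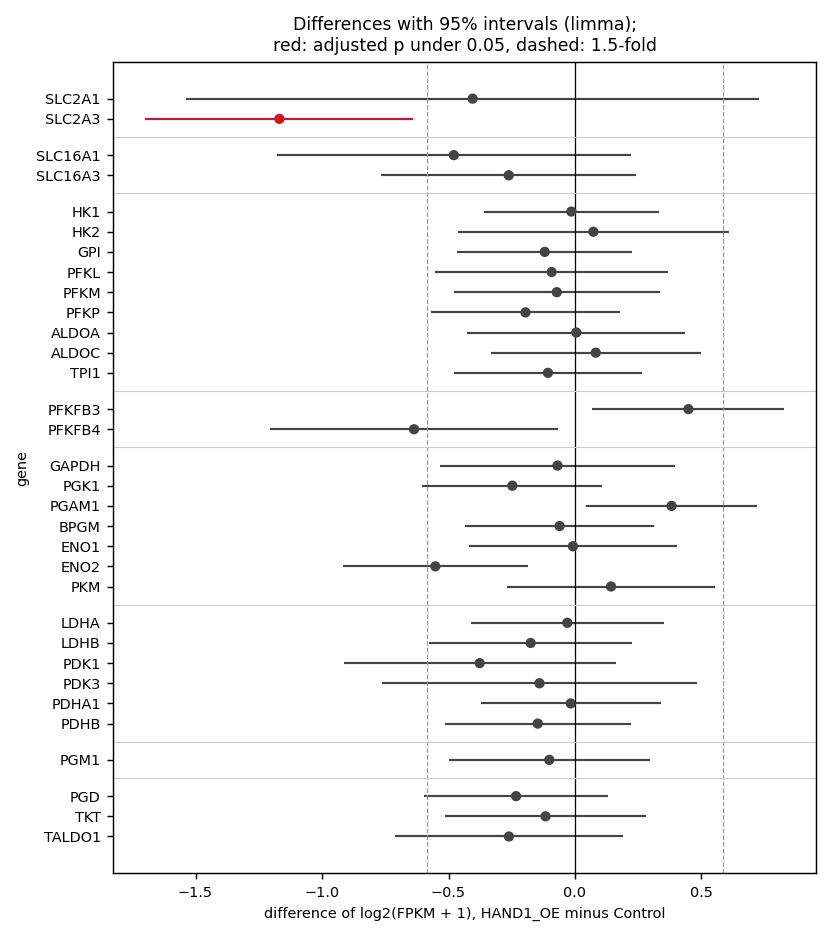
Difference of log2(FPKM + 1), HAND1_OE minus Control, for each of the 32 genes, with limma 95% intervals from 2 libraries per group. The point for SLC2A3, at -1.17, is the single one called and its interval lies beyond the dashed line of a 1.5-fold fall, while the intervals of SLC2A1 and SLC16A1 are the widest.

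Of the 2 glucose carriers 1 was called. SLC2A3 (ENSG00000059804.15, chromosome 12, 7919230 to 7936275, minus strand) was at 189 and 243 FPKM in Control against 82.2 and 109 FPKM in HAND1_OE. Both HAND1_OE libraries were below both Control libraries. The means were 216 ± 38.2 and 95.6 ± 18.9 FPKM (SD, n = 2 each), and the log2 difference was -1.17, with a standard error of 0.213 and a 95% interval of -1.70 to -0.64 (limma adjusted p = 0.0475). That is a level 2.25-fold lower in HAND1_OE. The difference stayed below 0 in all 14 settings tried, but the call lay near the threshold. It held in 4 of the 10 settings that kept all libraries, with adjusted p-values from 0.0099 to 0.235, and it was lost without Control replicate 2 (log2 difference -0.99) or without HAND1_OE replicate 1 (-0.97). GLUT3 is known in neurons and in platelets, and the erythroid, megakaryocyte and pan-hematopoietic sums above were lower in the same HAND1_OE libraries, while the stroma sum was higher. Their part in this result was not tested.

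SLC2A3 shares 13.0% of its 75-base stretches with SLC2A14, a neighbouring copy, so reads could be divided between them. SLC2A14 was far lower, at 2.04 and 2.41 FPKM in Control and 0.781 and 0.694 FPKM in HAND1_OE, with a log2 difference of -0.89 (adjusted p = 0.0861). Its HAND1_OE libraries too were below those of Control.

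SLC2A1, the widely expressed glucose carrier GLUT1 that red cells carry in abundance, behaved differently between replicates. It was at 15.6 and 37.4 FPKM in Control against 13.5 and 24.2 FPKM in HAND1_OE. Replicate 2 was 2.39 times replicate 1 in Control and 1.80 times replicate 1 in HAND1_OE, so the groups overlapped. The log2 difference of -0.40 had a 95% interval of -1.54 to 0.73 (adjusted p = 0.747), which leaves room for a large change in either direction. Of the 2 carriers SLC2A3 was the more abundant in every library. The share of SLC2A1 in their summed FPKM was 7.65% and 13.4% in Control and 14.1% and 18.2% in HAND1_OE, with both HAND1_OE libraries above. SLC2A3 is part of that sum, so the share also carries its lower level in HAND1_OE. The summed level of both carriers was 204 and 280.1 FPKM in Control and 95.6 and 133 FPKM in HAND1_OE.

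The monocarboxylate carriers, which move lactate and pyruvate with a proton, were not called. SLC16A1, coding for MCT1, was at 67.9 and 89.4 FPKM in Control and 43.1 and 71.8 FPKM in HAND1_OE (log2 difference -0.48, 95% interval -1.18 to 0.22). As with both glucose carriers, replicate 2 was the higher in each group. SLC16A3, coding for the lactate exporter MCT4, was at 62.5 and 89.3 FPKM in Control and 62.3 and 61.98 FPKM in HAND1_OE (-0.26, adjusted p = 0.607), where Control 1 and both HAND1_OE libraries were alike and Control 2 stood above. SLC16A3 overlaps CSNK1D, and the library kit keeps no strand, so reads of such pairs cannot be told apart. The share of SLC16A3 in the sum of the 2 carriers was 46.3% to 59.1%, with overlap between groups.

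None of the 9 genes of upper glycolysis, from the trapping of glucose to the triose phosphates, was called, and none had an unadjusted p under 0.05. Their log2 differences ran from -0.20 for PFKP to 0.08 for ALDOC. Their summed level was 1062 and 1020.01 FPKM in Control and 1065 and 961 FPKM in HAND1_OE. Hexokinase traps glucose as its 6-phosphate. HK1, the housekeeping form, was at 78.3 and 76.2 FPKM in Control and 73.8 and 79.3 FPKM in HAND1_OE, and HK2, the inducible form, at 2.17 and 2.92 FPKM and 2.40 and 3.04 FPKM. HK1 thus dominated, HK2 being 2.69% to 3.69% of the pair, and both overlapped between groups (adjusted p = 0.979 and 0.92). The interval for HK1, -0.36 to 0.33 on the log2 scale, was among the tighter ones.

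GPI, which turns glucose 6-phosphate into fructose 6-phosphate, was at 63.4 and 59.7 FPKM in Control and 58.1 and 55.1 FPKM in HAND1_OE (log2 difference -0.12). The 3 phosphofructokinase genes were close in level. PFKL, the liver form, was at 68.8 and 60.2 FPKM against 68.8 and 52.8 FPKM, PFKM, the muscle form, at 48.5 and 47.9 FPKM against 41.1 and 51.0 FPKM, and PFKP, the platelet form, at 49.5 and 57.0 FPKM against 44.9 and 47.7 FPKM. PFKL held the largest share of the 3 in each library, from 34.9% to 44.5%, and each share overlapped between groups. PFKP alone of the 3 had both HAND1_OE libraries below Control, with a log2 difference of -0.20 (95% interval -0.57 to 0.18).

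Aldolase cleaves fructose 1,6-bisphosphate. ALDOA, its main form, was at 528 and 496 FPKM in Control and 558 and 473 FPKM in HAND1_OE, a log2 difference of 0.01 that turned to -0.04 under quantile normalization. ALDOA shares 87.9% of its 75-base stretches with AC093512.2, a gene model at the same place in the annotation with no row in the table, so its level is uncertain. ALDOC, the brain form, was at 16.6 and 15.9 FPKM against 15.5 and 19.1 FPKM, which is 2.70% to 3.89% of the pair. TPI1, which interconverts the triose phosphates, was at 206 and 205 FPKM against 202 and 180.1 FPKM (-0.11). It shares 12.5% of its stretches with a pseudogene.

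The 2 bifunctional enzymes that make and break fructose 2,6-bisphosphate differed in opposite directions, although neither difference passed the test. PFKFB3 (ENSG00000170525.19, chromosome 10, 6144934 to 6254644), the strongly kinase-biased form known in sprouting endothelium, was at 14.1 and 13.2 FPKM in Control and 20.1 and 17.9 FPKM in HAND1_OE. Both HAND1_OE libraries lay above Control, with a log2 difference of 0.45 (95% interval 0.07 to 0.83, adjusted p = 0.216). PFKFB4 (ENSG00000114268.11, chromosome 3, 48517684 to 48562015), a hypoxia-inducible form, was at 5.52 and 8.44 FPKM in Control and 3.90 and 4.19 FPKM in HAND1_OE. Both HAND1_OE libraries lay below Control, with a log2 difference of -0.64 (-1.21 to -0.07, adjusted p = 0.238). The share of PFKFB4 in the pair was 28.1% and 39.0% in Control and 16.3% and 19.0% in HAND1_OE. The means differ by 16.0 points, with an SD of 7.68 points in Control and 1.94 points in HAND1_OE. This share restates the opposite differences of the 2 genes and is not a further result. With 2 libraries against 2, a two-sided exact permutation test cannot go below p = 0.333, so no share was tested.

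**Figure D3:**
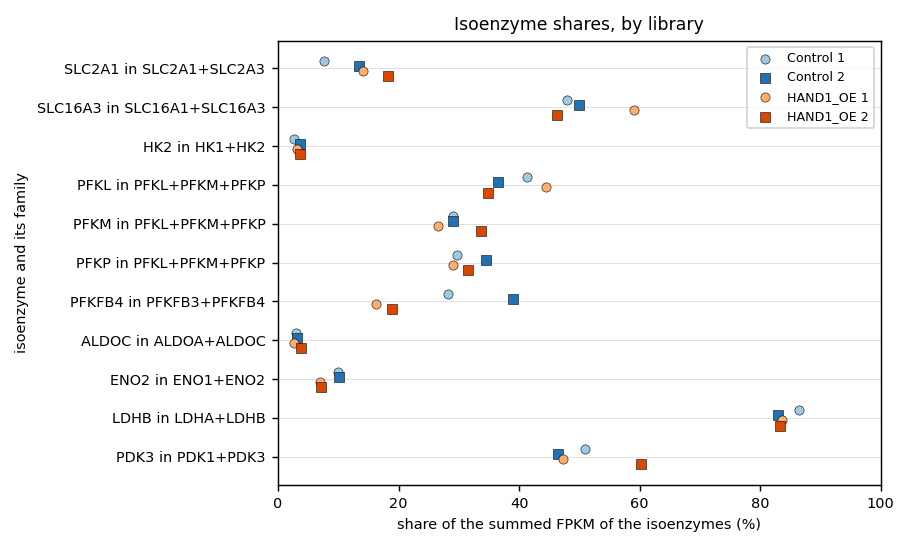
Share of an isoenzyme in the summed FPKM of its family, in percent, with a point per library (blue for Control, orange for HAND1_OE, circles for replicate 1 and squares for replicate 2). The shares of PFKFB4, ENO2 and SLC2A1 lie apart between groups, and those of the hexokinases, phosphofructokinases, aldolases, lactate dehydrogenases, PDK kinases and monocarboxylate carriers overlap. No share was tested, since 2 libraries against 2 cannot go below p = 0.333 in a two-sided exact permutation test.

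Lower glycolysis, from glyceraldehyde 3-phosphate to pyruvate, held no called gene among 7, with 1 above and 1 below at an unadjusted p under 0.05. Its summed level was 2348 and 2187 FPKM in Control and 2356 and 2085 FPKM in HAND1_OE. GAPDH, which yields the NADH of the pathway and is often used as a reference gene, was at 1368 and 1279 FPKM against 1347 and 1180.4 FPKM, a log2 difference of -0.07 that turned to 0.02 under median-ratio scaling. PGK1, which makes the first ATP, was at 128.3 and 128.001 FPKM in Control and 113 and 103 FPKM in HAND1_OE, and its HAND1_OE libraries were below Control (-0.25, 95% interval -0.60 to 0.11, adjusted p = 0.473). BPGM, which makes the 2,3-bisphosphoglycerate that lowers the oxygen affinity of hemoglobin in red cells, was at 12.8 and 11.9 FPKM against 11.5 and 12.1 FPKM (adjusted p = 0.899). Its groups overlapped. The erythroid sum differed by 14.7-fold between the group means, and the part of erythroid cells in the level of BPGM was not tested.

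PGAM1 (ENSG00000171314.8, chromosome 10, 97426160 to 97433441), a phosphoglycerate mutase, was at 75.02 and 73.6 FPKM in Control and 96.2 and 98.1 FPKM in HAND1_OE. Replicates were within 2 FPKM of each other and the HAND1_OE libraries were above, with a log2 difference of 0.38 (standard error 0.136, 95% interval 0.04 to 0.72, adjusted p = 0.235). It shares 39.8% of its stretches with 4 pseudogenes and PGAM4, all at 1.26 FPKM or less in every library.

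Enolase makes phosphoenolpyruvate. ENO1, the ubiquitous form, was at 435 and 399.96 FPKM in Control and 443 and 388 FPKM in HAND1_OE, and the groups overlapped. ENO2 (ENSG00000111674.8, chromosome 12, 6913745 to 6923698), the form of neurons and neuroendocrine cells that red cells and platelets are also known to hold, was at 48.0 and 45.1 FPKM in Control and 33.4 and 29.5 FPKM in HAND1_OE. Both HAND1_OE libraries were below, with a log2 difference of -0.55 (standard error 0.147, 95% interval -0.92 to -0.19, adjusted p = 0.127), the lowest adjusted p among the genes not called. ENO2 made up 9.95% and 10.1% of the pair in Control and 7.01% and 7.07% in HAND1_OE, with SDs of 0.127 and 0.0471 points. ENO2 overlaps LRRC23, so part of its reads could come from that gene. PKM, pyruvate kinase, was at 282 and 249 FPKM in Control and 312 and 274 FPKM in HAND1_OE (0.14, adjusted p = 0.757).

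HAND1 and its E-protein partners are known to bind the E-box, searched here as CANNTG, which reads the same way on both strands as a pattern. The hypoxia-inducible factors bind a core searched as ACGTG or GCGTG on both strands. The RefSeq promoter table (GRCh38.p14) held entries for 30 of the 32 genes, all but SLC2A3 and SLC16A1, with 58 start sites in all. In the 250 bases before each RefSeq start, 26 of the 58 (44.8%) held an E-box, against 61.8% of 35116 promoters. The hypoxia core was in 32 (55.2%), against 43.2%. Some genes had several entries that share sequence, such as those of HK1 starting at 69269750 and 69269755 on chromosome 10. The 58 are therefore not independent, and these shares are not shares of genes. The 35116 promoters were not matched to them for base composition, and the differences in share were not tested. The promoters of ENO2, PFKFB4 and PGAM1 are shown because these 3 genes had an unadjusted p under 0.05 and a single start site in the table. All 3 stretches lie inside the gene coordinates given above, which come from another annotation and begin further upstream. Sequence before those outer starts was not searched. They are printed 5′ to 3′ on the strand of the gene, with each E-box in capitals.
ENO2, plus strand, chr12:6914330-6914579: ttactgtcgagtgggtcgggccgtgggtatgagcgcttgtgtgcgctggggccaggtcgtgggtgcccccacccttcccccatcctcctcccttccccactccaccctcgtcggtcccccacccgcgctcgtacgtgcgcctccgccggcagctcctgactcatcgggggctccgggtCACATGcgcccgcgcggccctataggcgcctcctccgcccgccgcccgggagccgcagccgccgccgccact
PFKFB4, minus strand, chr3:48556804-48557053: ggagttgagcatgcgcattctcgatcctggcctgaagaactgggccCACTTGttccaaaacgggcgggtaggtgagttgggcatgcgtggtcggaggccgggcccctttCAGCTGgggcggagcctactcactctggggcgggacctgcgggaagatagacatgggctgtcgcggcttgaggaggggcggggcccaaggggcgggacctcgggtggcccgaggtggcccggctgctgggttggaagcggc
PGAM1, plus strand, chr10:97427568-97427817: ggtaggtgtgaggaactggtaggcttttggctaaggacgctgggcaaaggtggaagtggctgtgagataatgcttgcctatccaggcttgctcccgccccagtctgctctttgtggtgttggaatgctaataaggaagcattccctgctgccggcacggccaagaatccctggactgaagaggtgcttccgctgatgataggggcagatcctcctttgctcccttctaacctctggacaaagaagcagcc
ENO2 held 1 E-box and 1 hypoxia core, PFKFB4 held 2 E-boxes and 1 core, and PGAM1 held 0 of either. No E-box overlapped a core. These are matches of letters only and do not show binding.

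The 6 genes that decide the fate of pyruvate were all below 0 in log2 difference, from -0.38 for PDK1 to -0.02 for PDHA1, although LDHA and PDHA1 turned to 0.06 and 0.08 under median-ratio scaling, and none was called. Lactate dehydrogenase interconverts pyruvate and lactate. LDHA, the subunit of muscle, was at 62.3 and 73.0 FPKM in Control and 68.1 and 64.0 FPKM in HAND1_OE, and LDHB, the subunit of heart, at 401 and 355 FPKM against 347 and 321 FPKM. LDHB made up 82.9% to 86.5% of the pair, so the heart subunit was the more abundant transcript in all 4 libraries. Its log2 difference was -0.18 (95% interval -0.58 to 0.23). LDHB shares 54.8% of its stretches with AC010197.2, a gene model with no row in the table, which makes its level uncertain.

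PDK1 and PDK3, kinases that inactivate pyruvate dehydrogenase, were low. PDK1 was at 3.20 and 4.66 FPKM in Control and 2.77 and 2.74 FPKM in HAND1_OE, with both HAND1_OE libraries below (log2 difference -0.38, adjusted p = 0.47), and PDK3 at 3.32 and 4.04 FPKM against 2.48 and 4.14 FPKM. The enzyme they act on was more abundant. PDHA1, its alpha subunit, was at 90.9 and 82.0 FPKM against 85.3 and 85.4 FPKM, and PDHB, its beta subunit, at 59.6 and 51.7 FPKM against 50.4 and 49.7 FPKM, with HAND1_OE below (-0.15, adjusted p = 0.714).

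PGM1, which links glucose 1-phosphate from glycogen to glucose 6-phosphate, was at 15.3 and 18.2 FPKM in Control and 15.5 and 15.4 FPKM in HAND1_OE. Its groups overlapped (log2 difference -0.10, adjusted p = 0.828).

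The 3 genes of the pentose phosphate pathway lay below 0 in log2 difference, at -0.23 for PGD, -0.12 for TKT and -0.26 for TALDO1, and none was called or had an unadjusted p under 0.05. PGD, the second NADPH-forming step, was at 73.9 and 65.3 FPKM in Control and 59.7 and 58.2 FPKM in HAND1_OE, with both HAND1_OE libraries below (95% interval -0.60 to 0.13, adjusted p = 0.51). TKT and TALDO1 exchange carbon units between sugars in the non-oxidative branch. TKT was at 168 and 162 FPKM against 166 and 139 FPKM, and TALDO1 at 84.5 and 73.2 FPKM against 74.1 and 57.9 FPKM. In both the groups overlapped, HAND1_OE 1 lying at the level of a Control library. The differences of PGD and TALDO1 stayed below 0 in all 14 settings, and that of TKT turned to 0.01 without HAND1_OE replicate 2.

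Other genes of the same metabolism were read from lists written from general knowledge, also with earlier results of these data known. Of 120 listed genes 89 were tested, 4 were called higher and 0 lower, with a median log2 difference of -0.0049. At an unadjusted p under 0.05 there were 9 above and 6 below. Over all genes tested 2.04% were called higher and 2.11% lower, and 17.4% had an unadjusted p under 0.05 in either direction. No gene was called among 8 tested carriers, 5 glycolytic enzymes, 9 genes around pyruvate dehydrogenase, 9 of the pentose phosphate pathway, 12 of glycogen and gluconeogenesis and 17 of the TCA cycle. At an unadjusted p under 0.05 these 6 lists held SLC2A14 among carriers, ENO3 and LDHD among glycolytic enzymes, PRPS1 among pentose phosphate genes and PGM3, GBE1 and PCK2 among glycogen and gluconeogenesis genes. The 17 TCA cycle genes held none, and their differences ran from -0.24 to 0.28. BSG, the chaperone of the monocarboxylate carriers, was at 423 and 385 FPKM against 421 and 333 FPKM, so its groups overlapped.

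The 4 called genes were targets of hypoxia outside glycolysis or regulators. VEGFA, the growth factor of endothelium, rose from 41.5 and 32.6 FPKM to 105.01 and 87.5 FPKM (log2 difference 1.36, adjusted p = 0.0246). P4HA2, a collagen prolyl hydroxylase, rose from 14.8 and 16.2 FPKM to 33.9 and 30.5 FPKM (1.01, adjusted p = 0.0296), a call lost without Control replicate 1 (0.95, adjusted p = 0.0773). Among 18 tested targets of hypoxia these were the called ones, and the median of the list was -0.06. EPAS1, the endothelial hypoxia-inducible factor HIF-2 alpha, rose from 26.1 and 34.2 FPKM to 74.8 and 82.96 FPKM (1.37, adjusted p = 0.022). PPARG, a nuclear receptor of lipid metabolism, rose from 1.77 and 0.940 FPKM to 35.5 and 27.96 FPKM (3.81, adjusted p = 0.0061). For each of the 4 the groups did not overlap. The 4 were picked by their call in the same libraries, so this separation is not a further test. HIF1A was at 57.8 and 74.0 FPKM in Control and 91.6 and 116 FPKM in HAND1_OE and did not pass (0.65, adjusted p = 0.174), and MYC was at 27.1 and 36.2 FPKM against 22.4 and 19.2 FPKM (-0.58, adjusted p = 0.213). TXNIP, which lowers glucose uptake by acting on GLUT1, followed the replicates as SLC2A1 did, at 90.3 and 182 FPKM in Control and 43.3 and 85.1 FPKM in HAND1_OE (-1.07, adjusted p = 0.296).

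**Figure D4:**
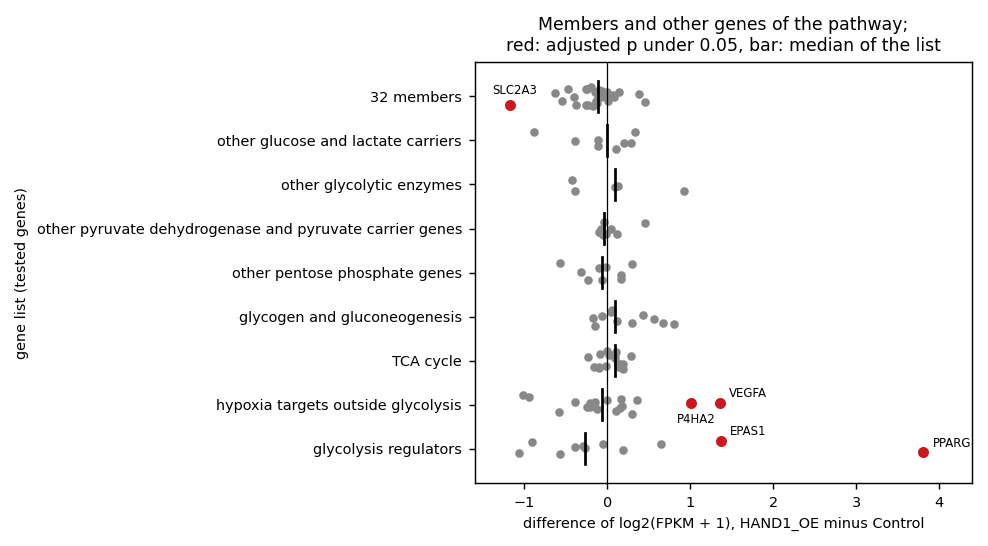
Difference of log2(FPKM + 1), HAND1_OE minus Control, for the tested genes of the 32 and of 8 further lists, with a point per gene, a black bar at the median of each list and red points for genes with a limma adjusted p under 0.05. The medians lie between -0.27 and 0.09, with SLC2A3 called to the left and VEGFA, P4HA2, EPAS1 and PPARG to the right.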

How the data were processed

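Libraries were grouped by their titles, 2 Control and 2 HAND1_OE. The authors deposited a single table with 1 normalized value per gene and library, read here as FPKM. The file does not name that unit, which the study uses when it plots genes of CD31+ cells. The kit was Illumina TruSeq on total RNA, which keeps no strand. The submitters' processing notes name BWA, Bowtie and RSEM without versions, and the build hg19, while the coordinates of 55583 of the 55605 genes matched by versioned ID are those of GENCODE 29 on GRCh38, the build used here (starts counted from 1). RSEM divides reads between similar genes by an estimate, so near copies are uncertain, and without counts no interval for counting error can be given.

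Of 58365 rows, 45 for Y copies and 91 that repeated a gene ID were left out, which kept 58229 genes. Genes that reached 1 FPKM in 2 or more libraries were compared on log2(FPKM + 1) with limma 3.58.1 under R 4.3.3, fitting a trend of the variance on the mean, two-sided, with Benjamini-Hochberg adjustment across all 14622 genes and a threshold of 0.05. On this scale the change of low genes is understated. The code was tested on simulated data. The depth of libraries relative to Control 1 was estimated as the most common ratio of low values in genes with 1 exon. Sequence shared with other genes was counted in 75-base stretches of GENCODE 29 transcripts.

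The 32 genes and all lists were chosen with earlier results of these data known. Named genes were the 32, HAND1, PECAM1 and PTPRC as markers, and up to 3 called genes per list. VWF, CLDN5, THY1, COL1A2, MYL4, TNNT2, TFAP2A, SLC2A14, BSG, HIF1A, MYC, TXNIP and the genes given only at an unadjusted p were chosen after their values were seen. So were LIN28A, DPPA4, DNMT3B, NANOG and SOX2. Alternatives were a pseudocount of 0.1, no filter (each gene above 0), median-ratio scaling, quantile normalization, 1 FPKM in all libraries, no trend, the replicate number as a block, a fold change of at least 2, and each library left out. Totals made equal between libraries and protein-coding genes alone were chosen after seeing the data.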

Additional observations from a re-analysis of the deposited data

How the results depend on the processing

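Of the 32 genes SLC2A3 alone was called, and 0 of 32 were called lower with a pseudocount of 0.1, no filter, quantile normalization, median-ratio scaling, no trend or totals made equal (the last chosen after seeing the data), always with a negative log2 difference, from -1.20 to -1.08. The cause was not tested. Leaving out 1 library gave 0 to 1 called lower and -1.37 to -0.97 for SLC2A3. With no filter 0 of 29860 genes passed in either direction, 0 of the further lists were called higher, and HAND1 itself missed the threshold (5.20, adjusted p = 0.153), although 1458 lay above and 2352 below at an unadjusted p under 0.05. Testing more genes, many of them near 0, also lowered the prior degrees of freedom of limma from 3.61 to 1.32. The median of the 32 was -0.019 under median-ratio scaling. The further lists had 1 gene called lower with protein-coding genes alone (SLC2A14), and 0 to 2 when 1 library was left out (TXNIP without Control replicate 1, TXNIP and ADM without HAND1_OE replicate 2). P4HA2 was not called without Control replicate 1 (0.95, adjusted p = 0.0773), and PPARG was not tested when 1 FPKM was required in every library.

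The replicate numbers are shared by both groups, but nothing says what they pair, and with 2 pairs the correlation of deviations, 0.383, cannot show it. With the replicate block 597 genes were higher and 712 lower, and 2 of the 32 were called lower, SLC2A3 and ENO2 (adjusted p = 0.0361). Of the further lists 7 were then higher (HIF1A, PCK2 and PGM3 besides the 4 named) and 4 lower (ARRDC4, DDIT4, NDRG1 and TXNIP).

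Some differences changed sign, none of them past the threshold, most near 0 and the largest that of SLC2A1 (-0.40 with all libraries). Under median-ratio scaling these were HK1 (0.078), PFKM (0.020), GAPDH (0.024), BPGM (0.026), ENO1 (0.085), LDHA (0.062) and PDHA1 (0.076). Under quantile normalization they were ALDOA (-0.037), GAPDH (0.033) and BPGM (0.013), and with totals made equal HK1 (0.0067), ENO1 (0.013) and PDHA1 (0.0044). With 1 library left out, the range was -1.009 to 0.20 for SLC2A1, -0.066 to 0.037 for HK1, -0.081 to 0.23 for HK2, -0.28 to 0.096 for PFKL, -0.22 to 0.081 for PFKM, -0.11 to 0.12 for ALDOA, -0.061 to 0.23 for ALDOC, -0.16 to 0.026 for GAPDH, -0.10 to 0.087 for ENO1, -0.14 to 0.083 for LDHA, -0.42 to 0.14 for PDK3, -0.090 to 0.057 for PDHA1, -0.22 to 0.018 for PGM1 and -0.24 to 0.011 for TKT.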
